A study of Sus scrofa with 24 samples.

Results

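The Toll-like receptors TLR1 to TLR10 are a family of innate immune sensors, and their transcripts were followed across 3 regions of the infarcted pig heart and 2 treatment arms. A probe counted as a member when the array files gave it one of the 10 symbols, or an accession that maps to one in the RefSeq gene table. This rule found 15 probes among 43603 on the array, covering all 10 receptors out of 6949 named genes. TLR4 had 5 probes, TLR3 had 2 and each other receptor had 1. All 15 probes were well above the local background on at least 3 of 24 arrays, the filter that 34362 probes passed.

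Tissue came from 9 hearts of domestic pigs in which an infarct had been made by closed-chest occlusion followed by reperfusion; the animals' ages are not stated in the sources used here. After 1 month the pigs were injected in the heart muscle with the secretome of apoptotic peripheral blood mononuclear cells (6 pigs) or with the medium alone as placebo (3 pigs, whose arrays are marked as not treated). All 9 pigs, in both arms, had taken 250 mg aspirin and 300 mg clopidogrel before the infarct and took 100 mg and 75 mg daily afterwards. Tissue was taken 1 month after the injections. From the secretome arm there are 6 arrays of infarct core, 6 of border zone and 4 of normal region; from the medium arm there are 3, 3 and 2. Each array is 1 tissue sample of 1 pig, and the normal region was not arrayed for pigs 12, 13 and 40. Randomization placed 8 pigs in each arm, of which those above were arrayed.

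Toll-like receptors recognise microbial molecules, and some also respond to molecules released from damaged cells and matrix. TLR1, TLR2, TLR4, TLR5, TLR6 and TLR10 act mainly at the cell surface, where TLR2 pairs with TLR1 or TLR6. TLR3, TLR7, TLR8 and TLR9 sense nucleic acids inside endosomes. All of them except TLR3 signal through the adaptor MYD88, while TLR3 uses TICAM1 and TLR4 uses both, and the signal ends in NF-kappaB and interferon regulatory factors. In the heart, macrophages carry many of these receptors, and cardiomyocytes and endothelium carry TLR4 among others.

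The sequences of 6 probes are shown, to set the overlapping TLR3 pair beside separate readings. The TLR3 probes are offset copies of one stretch of transcript, with starts listed at 2870 and 2882, and the capitals mark the 48 bases that both contain, so their readings are not independent. The 2 TLR4 probes, with starts listed at 2000 and 2208, share no run over 8 bases with each other or with a probe of another receptor. They are among the 4 TLR4 probes whose values are given beside the brightest one, which has its start listed at 3229. TLR2 is shown as the receptor with the smallest adjusted p between infarct core and normal region. TLR5 is shown as the receptor that did not pass any test.
TLR2: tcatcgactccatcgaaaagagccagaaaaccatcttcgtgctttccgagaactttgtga
TLR3, probe 1: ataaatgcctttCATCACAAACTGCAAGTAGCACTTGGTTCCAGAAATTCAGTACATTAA
TLR3, probe 2: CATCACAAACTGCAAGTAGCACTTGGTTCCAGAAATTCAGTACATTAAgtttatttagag
TLR4, start 2000: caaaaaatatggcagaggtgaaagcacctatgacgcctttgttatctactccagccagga
TLR4, start 2208: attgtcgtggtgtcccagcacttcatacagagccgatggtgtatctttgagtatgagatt
TLR5: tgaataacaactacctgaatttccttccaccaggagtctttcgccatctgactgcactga
No probe of one receptor shared a run over 8 bases with a probe of another receptor. In the RefSeq table, which is built on Sscrofa11.1, TLR10, TLR1 and TLR6 lie next to each other, TLR7 lies within the span of TLR8, and TLR9 overlaps TWF2. The array files name no genome build, so no coordinates are given.

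Levels are given as log2 of the processed signal minus log2 of the array's 75th percentile, so that 0 stands for that percentile and 1 unit is a 2-fold change. Probes bind with different strength, so levels are compared between samples and not between receptors. Cardiomyocyte markers, averaged on this scale over 10 measured genes, lay between 2.67 and 8.60 in the infarct core, between 7.49 and 9.04 in the border zone and between 8.38 and 9.08 in the normal region. The arrays fall in 2 scan series: pigs 12, 13, 16, 18 and 40 are in series 1 and pigs 10, 11, 14 and 15 are in series 2. Deviations from the group means correlated at -0.45 on average between arrays of different series and at 0.44 between different pigs of one series, so values within each series are given beside the results they change. Per array, 61.5% to 75.6% of probes stood well above background, and the number of arrays limits the precision.

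Between the infarct core and the normal region, 9 of 10 receptors were higher in the core and none was lower (limma, Benjamini-Hochberg adjusted p under 0.05). Over all probes tested, 25.4% were called higher in this comparison and 27.6% lower. The median log2 difference of the 10 receptors was 1.29, and that of all probes was -0.05. The endosomal receptor TLR7 had the largest log2 difference among receptors measured in both regions, and TLR5, the flagellin receptor, did not pass. TLR8 was not well above background on any normal region array, and its probe passed the filter only through the core. In bulk tissue, more cells of a type and more RNA per cell cannot be told apart.

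**Figure D1:**
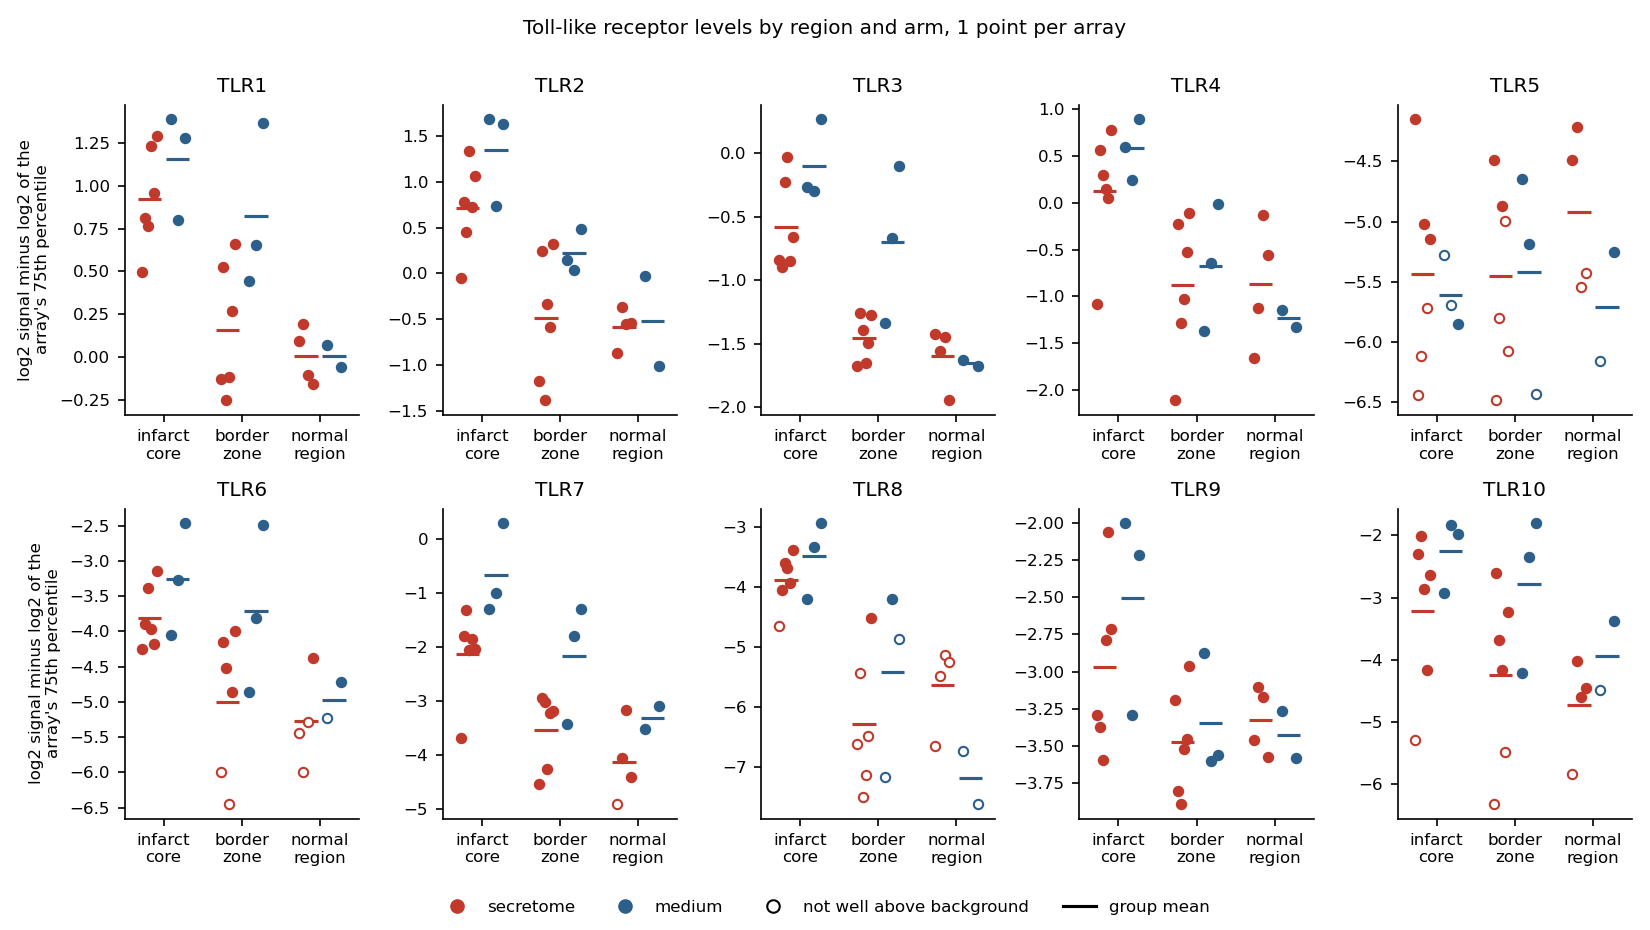
Level of each Toll-like receptor on each of 24 arrays (y axis, log2 signal minus log2 of the array's 75th percentile; the axes differ between panels), by region and arm, with secretome left of medium, a line at each group mean and open points where the probe was not well above background. Core and normal region points do not overlap for TLR1, TLR3, TLR6 and TLR8, and TLR5 points of all regions lie in one range.

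Among the surface receptors, TLR2 senses bacterial lipoproteins. Its level in the 9 infarct core arrays had a lowest value of -0.05, a median of 0.78 and a highest of 1.69, against -1.01, -0.54 and -0.03 in the 6 normal region arrays. Only the highest normal array, from pig 10, reached the lowest core array, from pig 11. The log2 difference was 1.55 ± 0.20 (SE), a 2.93-fold higher signal with an adjusted p of 2.5e-06, and the core was higher in 6 of 6 pigs with both regions. TLR1, a partner of TLR2, had a lowest value of 0.50, a median of 0.95 and a highest of 1.39 in the core, against -0.16, 0.01 and 0.19 in the normal region. The groups did not overlap, and the log2 difference was 0.99 ± 0.16 (SE, adjusted p = 2.7e-05). TLR6, the other partner, ranged from -4.25 to -2.46 in the core, against -5.99 to -4.38 in the normal region. The TLR6 groups did not overlap either, with a log2 difference of 1.34 ± 0.27 (SE, adjusted p = 0.00031), but its probe was well above background on only 2 of 6 normal arrays. TLR10, whose ligand is poorly defined, ranged from -5.29 to -1.83 in the core, against -5.84 to -3.38 in the normal region. Its groups overlapped, and its log2 difference was 1.3 ± 0.36 (SE, adjusted p = 0.0044).

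TLR4, the lipopolysaccharide receptor, was read by 5 probes. On the brightest one the lowest, median and highest levels were -1.09, 0.29 and 0.90 in the core, against -1.67, -1.14 and -0.13 in the normal region. The lowest core value, again from pig 11, lay among the normal values, and the other 8 core arrays lay above all 6 of them. The log2 difference was 1.28 ± 0.22 (SE, adjusted p = 4.9e-05). The other 4 probes gave log2 differences of 1.27 to 1.34, so the 5 probes differed by less than their standard errors. TLR5 had levels of -6.44, -5.69 and -4.15 (lowest, median and highest) in the core, against -6.16, -5.34 and -4.21 in the normal region, with a log2 difference of 0.04 ± 0.27 (SE, adjusted p = 0.92) and a 95% confidence interval of -0.53 to 0.60. Its probe was well above background on 4 of 9 core, 4 of 9 border and 3 of 6 normal arrays. The interval lies below the differences of the other surface receptors.

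Among the nucleic acid sensors, TLR7 and TLR8 recognise single-stranded RNA. TLR7 had a lowest level of -3.68, a median of -1.80 and a highest of 0.31 in the core, against -4.92, -3.78 and -3.10 in the normal region. One core array, from pig 11, lay within the normal range. The log2 difference was 2.07 ± 0.26 (SE), a 4.19-fold higher signal with an adjusted p of 2.8e-06, and it was positive in 6 of 6 pigs. TLR8 ranged from -4.65 to -2.94 in the core, where it was well above background on 8 of 9 arrays. In the normal region it ranged from -7.62 to -5.14 and was not well above background on any of 6 arrays. The mean of the core arrays was 3.25-fold above the lowest signal flagged well above background for any probe on each normal array. The limit for the TLR8 spot itself can be higher, so this is not a strict lower bound. The fitted log2 difference was 2.63 ± 0.39 (SE, adjusted p = 1.3e-05), and with normexp background correction it was 0.03. The TLR8 probe was well above background on 2 of 9 border arrays, so it passed the filter of 3 arrays only through the core. Its call and its lack of overlap are therefore no independent sign that the core is higher.

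TLR3, which recognises double-stranded RNA, had levels of -0.90, -0.30 and 0.27 (lowest, median and highest) in the core, against -1.95, -1.59 and -1.43 in the normal region. The groups did not overlap, and the log2 difference was 1.18 ± 0.16 (SE, adjusted p = 4.6e-06). The second TLR3 probe gave 1.13 ± 0.16 (SE). TLR9, which recognises unmethylated CpG DNA, ranged from -3.59 to -2.0 in the core, against -3.58 to -3.10 in the normal region. The groups overlapped, and its log2 difference of 0.71 ± 0.19 (SE, adjusted p = 0.0031) was the smallest of the 9 called. Without pig 10, TLR9 had a log2 difference of 0.57 and an adjusted p of 0.062, and within scan series 1 it had 0.64 with an adjusted p of 0.15. In all, 4 of 10 receptors (TLR1, TLR3, TLR6 and TLR8) had groups that did not overlap, with the core higher, against 7.41% of all probes. Of these, TLR8 passed the filter only through the core.

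Within each scan series the medium arm had 1 normal region array, from pig 18 in series 1 and pig 10 in series 2, so receptors called are not counted there. TLR4 had a log2 difference of 1.5 in series 1 and 1.21 in series 2, where the adjusted p was 0.077. TLR10 had 1.75 in series 1 and 1.15 in series 2, where the adjusted p was 0.20. All 9 called receptors had a positive difference in both series. With normexp background correction, which adds an offset of 50 to signals that average 108 or less for these probes, the core calls for TLR6 (0.05), TLR7 (0.66), TLR8 (0.03), TLR9 (0.07) and TLR10 (0.25) did not pass, and 4 of 10 receptors were called; that setting moved the median of all probes to -0.21.

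The border zone lies between the core and the normal region, and it is where the injections were placed. Between border zone and normal region, 0 of 10 receptors passed the limma test, and 0.457% of all probes were called higher. The log2 differences ran from 0.04 for TLR9 to 0.61 for TLR7, all above 0. However, 4 of 10 were above 0 under normexp (median -0.11, and -0.245 over all probes) and 7 of 10 within scan series 2. In the limma test above, 3 of 10 receptors had an unadjusted p under 0.05 (TLR1, TLR3 and TLR7), against 4910 of 34362 probes. That count is too small to set apart from the share of all probes. TLR7 had a lowest level of -4.54, a median of -3.20 and a highest of -1.29 in the border zone, against -4.92, -3.78 and -3.10 in the normal region. The groups overlapped, and the log2 difference of 0.61 had a 95% confidence interval of 0.06 to 1.16 and an adjusted p of 0.30. The difference was positive in 4 of 6 pigs. TLR1 had a difference of 0.44 with an interval of 0.11 to 0.77, and TLR3 had 0.44 with the same interval.

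The 2 scan series differed in this comparison. Within series 1 TLR7 had a border minus normal difference of 1.33 (adjusted p = 0.086), TLR3 had 0.91 and TLR1 had 0.78. Within series 2 the same receptors had 0.07, 0.08 and 0.16. In pigs 16 and 18, the only pigs of series 1 with a normal region array, the border value was above the normal value for 9 of the 10 receptors in pig 16 and 9 of 10 in pig 18. The difference between the series was not tested.

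**Figure D2:**
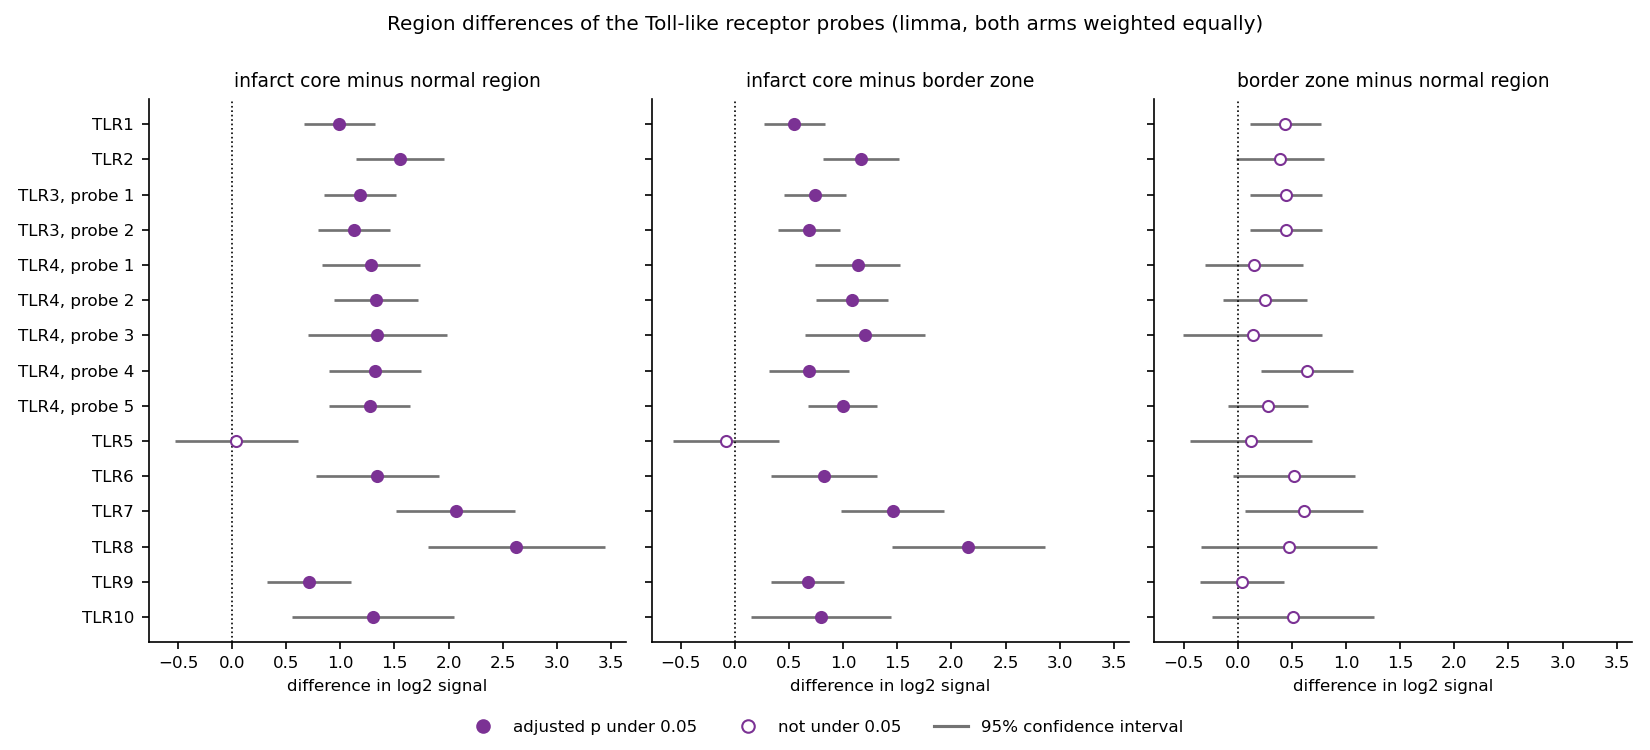
Log2 difference (x axis, with 95% confidence intervals from limma) of each of 15 Toll-like receptor probes in 3 region comparisons, with filled points where the adjusted p was under 0.05. The 5 TLR4 probes lie close together between infarct core and normal region, TLR5 lies at 0, and no point is filled between border zone and normal region.

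Between infarct core and border zone, all 9 pigs had both regions. The core was called higher for 9 of 10 receptors, against 23% of all probes. TLR7 had a log2 difference of 1.46 ± 0.23 (SE, adjusted p = 4.5e-05). TLR8 had a fitted difference of 2.16 ± 0.34 (SE, adjusted p = 4.6e-05), but its probe was well above background on 8 of 9 core arrays and 2 of 9 border arrays. The size of the TLR8 difference is therefore set mostly against dim signals, on a probe that passed the filter only through the core. TLR2 had 1.16 ± 0.17 (SE), TLR4 had 1.13 ± 0.19 (SE), TLR6 had 0.82 ± 0.24 (SE), TLR3 had 0.74 ± 0.14 (SE), TLR9 had 0.67 ± 0.16 (SE) and TLR1 had 0.55 ± 0.14 (SE). TLR10 passed narrowly with 0.79 ± 0.31 (SE, adjusted p = 0.041), and TLR5 had -0.08 ± 0.23 (SE, adjusted p = 0.80). The core and border arrays overlapped for all 10 receptors.

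TLR2, TLR3, TLR4, TLR6, TLR7 and TLR8 were higher in the core than in the border zone of the same heart in 9 of 9 pigs. TLR1 and TLR10 were higher in 8 of 9 pigs, and the exception for both was pig 40. TLR9 was higher in 8 of 9, with pig 11 as the exception. TLR8 was well above background in both regions only in pigs 16 and 18, where it differed by 1.13 and 0.86. TLR7 differed by between 0.80 in pig 18 and 2.20 in pig 14. By exact sign-flip of the 9 within-pig differences, the 6 receptors with 9 of 9 reached p = 0.00391, the smallest this design allows, and TLR1, TLR9 and TLR10 had p = 0.00781 (two-sided, unadjusted). For TLR8 that p is no independent sign that the core is higher, because its probe passed the filter only through the core. The share of all probes higher in 9 of 9 pigs is not given here.

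**Figure D3:**
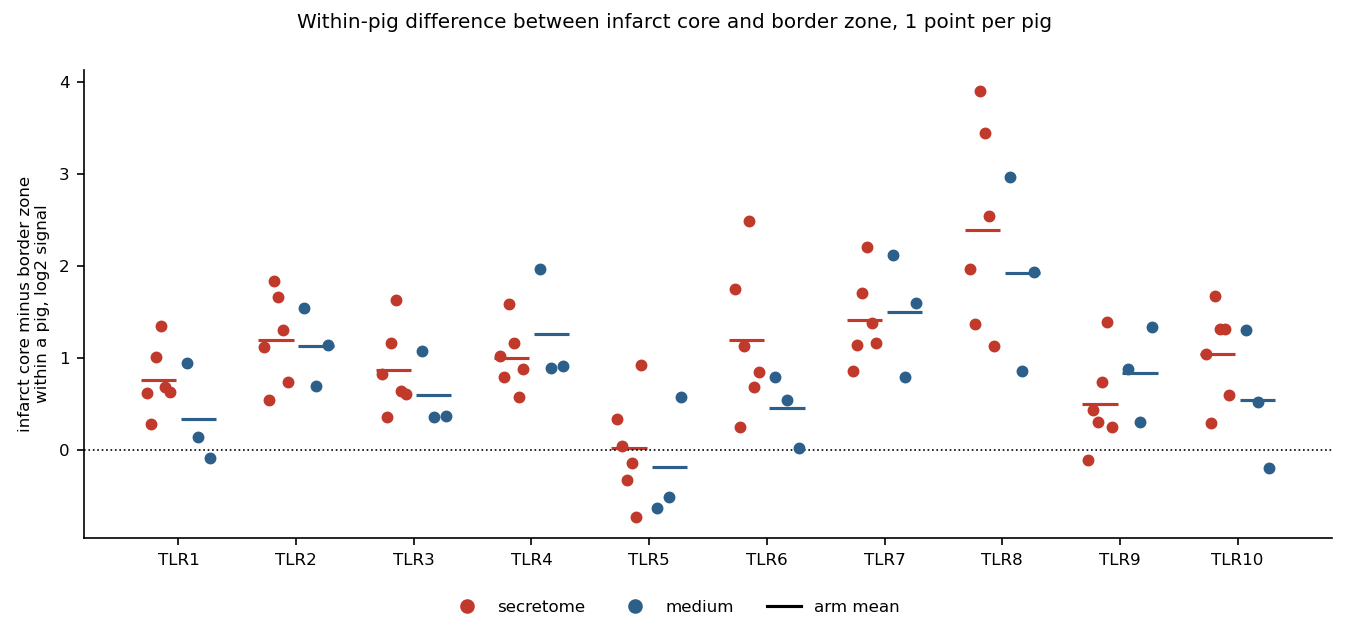
Difference between infarct core and border zone within each of 9 pigs (y axis, log2 signal), for each receptor, with the 6 secretome pigs left of the 3 medium pigs and a line at each arm's mean. All points lie above 0 for TLR2, TLR3, TLR4, TLR6, TLR7 and TLR8, and TLR5 has points on both sides of 0.

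TLR10 was the least firm of these calls: without pig 10 its difference was 0.60 (adjusted p = 0.21), without pig 13 it was 0.73 (adjusted p = 0.073), without pig 14 it was 0.77 (adjusted p = 0.078) and without pig 18 it was 0.80 (adjusted p = 0.095). It also missed the threshold under quantile normalization (0.72, adjusted p = 0.066), with no filter (adjusted p = 0.062), with no replicate block (adjusted p = 0.31), with slide as block (adjusted p = 0.058), under normexp, in the authors' values and within each scan series, in all 12 of 22 alternatives. TLR6 missed it in 5 of 22, among them the authors' values (0.080, adjusted p = 0.073) and the fit with no replicate block (adjusted p = 0.12). The authors' deposited table, tested the same way, gave calls for 4 of its 7 receptors, against 5933 of 26223 probes called higher. TLR1 without pig 10 had 0.40 (adjusted p = 0.053). Within scan series 1 the core was called higher for 5 of 10 receptors (TLR2, TLR3, TLR4, TLR7 and TLR8), against 4989 of 34362 probes. Within series 2, where pig 10 is the only medium pig, TLR4 had a difference of 1.45, TLR6 1.22, TLR9 0.78 and TLR10 1.26.

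The same contrast was taken inside each arm. In the secretome pigs 9 of 10 receptors were higher in the core than in the border zone, against 19.1% of all probes. In the medium pigs 5 of 10 were higher (TLR2, TLR4, TLR7, TLR8 and TLR9), against 10.7%. TLR8 had a log2 difference of 2.39 ± 0.39 (SE) in the secretome arm and 1.92 ± 0.55 (SE) in the medium arm. Its probe passed the filter only through the core, so its calls in both arms are no independent sign that the core is higher. TLR7 had 1.41 ± 0.26 (SE) in the secretome arm and 1.5 ± 0.37 (SE) in the medium arm. TLR2 had 1.20 ± 0.20 (SE) in the secretome arm and 1.13 ± 0.28 (SE) in the medium arm. TLR4 had 1.01 ± 0.22 (SE) in the secretome arm and 1.26 ± 0.31 (SE) in the medium arm. TLR9 had 0.50 ± 0.19 (SE) in the secretome arm and 0.84 ± 0.26 (SE) in the medium arm. The secretome arm call for TLR9 was lost in 13 of 21 alternatives, among them quantile normalization (0.45, adjusted p = 0.055), normexp (0.059) and leaving out pig 12, 13, 14, 15 or 16, with 0.32 and an adjusted p of 0.16 without pig 15. The difference between the arms in this contrast ran from -0.34 for TLR9 to 0.74 for TLR6 and passed for 0 of 10 receptors (limma, smallest adjusted p = 0.84), with 0 of 10 at an unadjusted p under 0.05 and 0 probes called in all. In the medium arm 0 of 10 receptors passed without pig 10 or without pig 40, where TLR7 had 1.20 (adjusted p = 0.088) and 1.46 (adjusted p = 0.11). Most probes lost their call as well: of 34362 probes, 1305 were called higher without pig 10 and 17 without pig 40, against 3691 with all pigs.

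The treatment comparison asks how the secretome changed expression against the medium. In the infarct core 0 of 10 receptors passed (limma, smallest adjusted p = 0.97), and 5 of all probes did, all lower in the secretome arm, which is 0.0146% of those tested. For 9 of 10 receptors the estimate lay below 0, with a median of -0.48, and over all probes 54.9% lay below 0. Only TLR7, 1 of 10, had an unadjusted p under 0.05, against 1685 of 34362 probes, a count too small to set apart from that share. Its 6 secretome core levels had a lowest value of -3.68, a median of -1.94 and a highest of -1.31, against -1.3, -1.0 and 0.31 in the medium pigs 10, 18 and 40. The highest secretome value lay just under the lowest medium value, so the groups did not overlap. The log2 difference was -1.46 ± 0.48 (SE) with a 95% confidence interval of -2.46 to -0.46 and an adjusted p of 0.97. An exact permutation of arms over pigs gave p = 0.0119 (two-sided, unadjusted), the smallest that 6 against 3 pigs allow. The share of all probes with separate groups and lower values in the secretome arm was 1.46%.

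TLR2 in the core had a lowest level of -0.05, a median of 0.75 and a highest of 1.33 in secretome pigs, against 1.69, 0.73 and 1.63 in the medium pigs 10, 18 and 40. Pig 18 lay within the secretome range, and the difference of -0.63 had an interval of -1.37 to 0.11. For TLR7 the value without pig 40 was -0.97 and without pig 10 it was -1.78. Within the scan series TLR7 had -1.37 in series 1 and -1.23 in series 2, and -1.32 with the scan series as a covariate (adjusted p = 0.32).

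In the border zone 0 of 10 receptors passed (limma, smallest adjusted p = 0.66), and 0 probes passed in all, with 2475 of 34362 at an unadjusted p under 0.05. All 10 estimates lay below 0, with a median of -0.73, and over all probes 53.0% lay below 0. An unadjusted p under 0.05 was reached by 5 receptors (TLR1, TLR3, TLR6, TLR7 and TLR10). TLR7 had a lowest level of -4.54, a median of -3.21 and a highest of -2.95 in secretome border samples, against -3.42, -1.79 and -1.29 in the medium pigs 10, 18 and 40. Pig 10 lay among the secretome values and the other medium pigs above them. The same holds for TLR3, which ranged from -1.67 to -1.26 in secretome pigs, against -1.34, -0.67 and -0.10 in those medium pigs. The TLR7 difference was -1.37 with a 95% confidence interval of -2.36 to -0.37, and that of TLR3 was -0.76 with an interval of -1.36 to -0.16. TLR6 had -1.28, TLR10 had -1.46 and TLR1 had -0.66, with unadjusted p values of 0.017, 0.036 and 0.032. These values moved with single medium pigs: without pig 40 TLR7 had -0.93, TLR3 -0.45, TLR6 -0.67, TLR10 -0.96 and TLR1 -0.39, and without pig 10 they had -1.99, -1.07, -1.85, -2.18 and -0.85. By exact permutation of arms over pigs only TLR3 fell under 0.05 (p = 0.0357, two-sided, unadjusted).

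Within scan series 1, TLR7 had a border difference of -1.52, TLR10 had -1.10, TLR6 had -1.07, TLR3 had -0.93 and TLR1 had -0.70. Within series 2, where pig 10 is the only medium pig, they had -0.59, -1.11, -0.92, -0.27 and -0.43. In the normal region, with 4 against 2 pigs, 0 of 10 receptors passed (limma, smallest adjusted p = 1.0) and none had an unadjusted p under 0.05. Differences there ran from -0.96 for TLR7 to 1.32 for TLR8, 7 of them below 0. However, all 10 were above 0 under normexp (median 0.21, and 0.134 over all probes) and 5 of 10 with no replicate block. TLR8 was not well above background in either arm of that region; its groups did not overlap there, with secretome higher, against 4.75% of all probes, and the smallest p an exact permutation of 4 against 2 pigs allows is 0.0667. The intervals are wide: the half-width of the 95% confidence interval ran from 0.60 to 1.48 log2 units in the core and border zone, and from 0.68 to 1.69 in the normal region. A difference smaller than the receptor's own half-width could not reach an unadjusted p under 0.05 with these pigs. Larger ones can still miss the adjusted threshold: TLR7 in the core, at -1.46, had an adjusted p of 0.97 (limma).

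**Figure D4:**
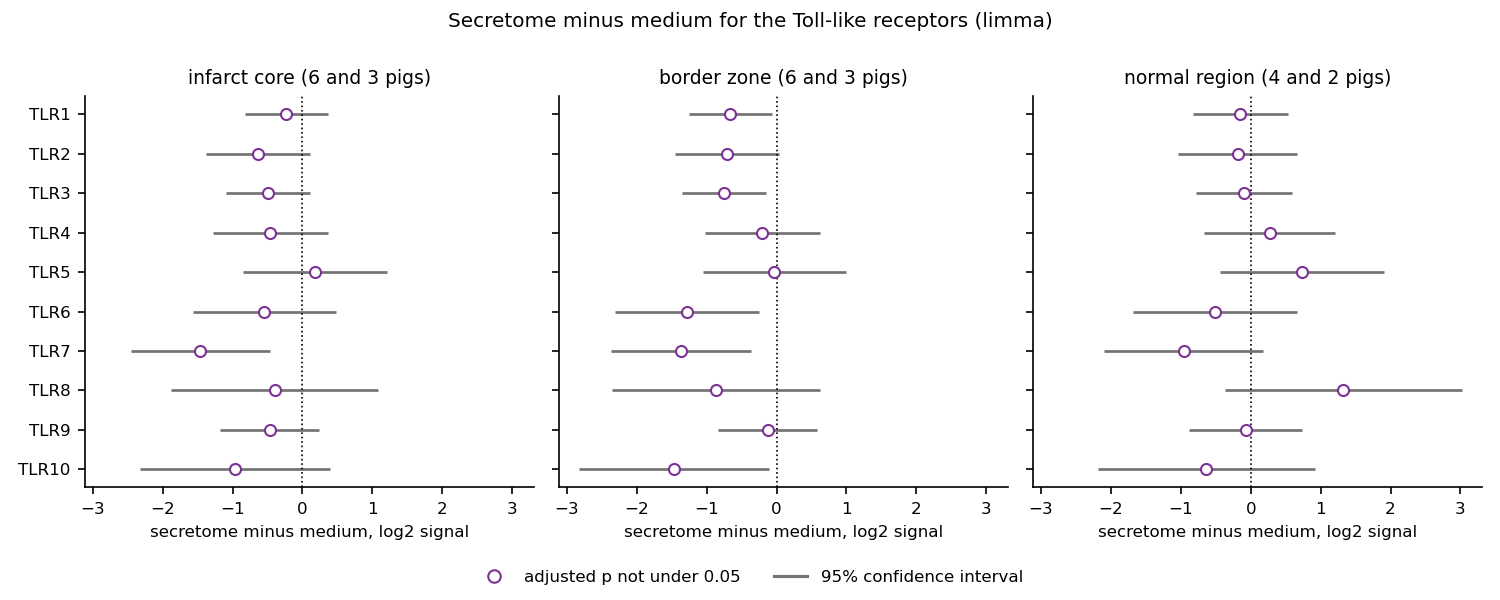
Secretome minus medium difference (x axis, log2 signal, with 95% confidence intervals from limma) of each receptor in 3 regions; all points are open because none had an adjusted p under 0.05. Most points lie left of 0 in the infarct core and border zone, and TLR7 has intervals that stay below 0 in both.

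Cell type markers moved in the same comparisons. The 11 measured macrophage markers were all higher in the core than in the normal region, with a median log2 difference of 1.54, and their mean level ranged from 2.28 to 4.11 in the core, from 1.14 to 2.60 in the border zone and from 1.11 to 1.93 in the normal region. CSF1R and ITGAM were not measured. Of the 12 T and NK cell markers 10 were higher in the core and 1 lower, with mean levels of -3.10 to -0.22 in the core, -3.35 to -1.07 in the border zone and -3.18 to -2.27 in the normal region. All 8 fibroblast markers were higher and all 10 cardiomyocyte markers lower in the core, with medians of 3.17 and -2.18. Of 6 neutrophil markers 0 were higher and 1 was lower, with mean levels of -3.11 to -0.08 in the core and -2.40 to -1.34 in the normal region. Of 7 endothelial markers 3 were lower, and of 4 B cell markers 2 were higher and 1 lower. Of 2 measured mast cell markers 2 were higher, and of 2 dendritic cell markers 1 was higher. Over all probes 25.4% were called higher and 27.6% lower. The neutrophil, endothelial, B cell, mast cell and dendritic cell counts are too small to set apart from those shares. The part of these cell types in the receptor differences was not tested.

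The same lists also moved with the arms, without passing the test. In the core, secretome minus medium was below 0 for 11 of 11 macrophage markers (median -0.72) and for 12 of 12 T and NK cell markers (median -1.31), and above 0 for 10 of 10 cardiomyocyte markers (median 1.72). Macrophage marker levels ranged from 2.28 to 3.47 in secretome core samples, against 3.33 to 4.11 in medium core samples. Cardiomyocyte marker levels ranged from 6.22 to 8.60 in secretome core samples, against 2.67, 6.68 and 7.24 in the 3 medium core samples. Only the lowest medium value lay outside the secretome range, so the size of the cardiomyocyte difference in the core leans on that sample. In the border zone, secretome minus medium was below 0 for 11 of 11 macrophage markers (median -0.66), 10 of 12 T and NK cell markers (median -1.60), 8 of 8 fibroblast markers (median -0.91) and 4 of 4 B cell markers (median -0.84). It was above 0 there for 7 of 7 endothelial markers (median 0.65) and 10 of 10 cardiomyocyte markers (median 0.29). In the core, 7 of 8 fibroblast markers (median -0.21) and 4 of 4 B cell markers (median -0.81) lay below 0 and 7 of 7 endothelial markers (median 0.36) above 0. No marker of these lists passed in either region, and their part in the receptor estimates was not tested.

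The genes around the receptors were compared between core and normal region, where 25.4% of all probes were called higher and 27.6% lower. For the coreceptors and chaperones, kinases, transcription factors and inhibitors the counts below are too small to set apart from those shares, and nothing is read from them. The same holds for the adaptors called lower. Among endogenous ligands, meaning matrix and alarm molecules that have been described to engage TLR2 or TLR4, 9 of 14 measured genes were higher in the core and 2 were lower, with a median log2 difference of 1.64. The matrix genes TNC (tenascin C) with 5.91 ± 0.58 (SE), FN1 (fibronectin) with 4.61 ± 0.40 (SE), BGN (biglycan) with 4.09 ± 0.47 (SE) and VCAN (versican) with 3.26 ± 0.31 (SE) led this list. FN1, DCN and LUM are also in the fibroblast list. The lower genes were HSPD1, a mitochondrial chaperone, with -0.98 ± 0.15 (SE), and HMGB1, a chromatin protein, with -0.30 ± 0.11 (SE). S100A8 and S100A9, alarm proteins of neutrophils and macrophages, had 1.17 ± 0.64 (SE) and 0.84 ± 0.56 (SE) and did not pass. TNC and FN1 also passed between border zone and normal region, as did 2 of the 8 fibroblast markers.

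Of 8 measured coreceptors and chaperones, 4 were higher in the core and 2 lower. LY96, the MD-2 subunit that binds lipopolysaccharide with TLR4, had 2.44 ± 0.31 (SE, adjusted p = 2.7e-06). CD180, a TLR4 relative, had 1.55 ± 0.20 (SE) and its partner LY86 had 1.39 ± 0.17 (SE). CD14, which hands lipopolysaccharide to LY96, had 0.79 ± 0.23 (SE, adjusted p = 0.0055), and its second probe gave 1.26. CD36, a fatty acid transporter and TLR2 coreceptor, was lower with -2.48 ± 0.38 (SE), and LBP, the lipopolysaccharide binding protein, was lower with -1.23 ± 0.30 (SE). The folding helpers HSP90B1 and CNPY3 had 0.03 and 0.02.

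Of 5 measured adaptors 4 were higher and 1 lower. MYD88 had 1.40 ± 0.15 (SE, adjusted p = 3.8e-07), and PIK3AP1, which links the receptors to PI3 kinase, had 2.0 ± 0.21 (SE). TICAM2, the bridge between TLR4 and TICAM1, had 0.78 ± 0.18 (SE), and TRAF6, the ubiquitin ligase downstream of MYD88, had -0.60 ± 0.16 (SE). TICAM1, the adaptor of TLR3, was not measured. Of 11 kinases 1 was higher and 3 lower. IRAK4, the kinase that MYD88 recruits, had 1.39 ± 0.17 (SE), while IRAK1, its substrate, had -0.76 ± 0.14 (SE). IKBKB, which releases NF-kappaB, had -1.39 ± 0.25 (SE), and TAB1, a partner of TAK1, had -0.42 ± 0.14 (SE). Of 8 transcription factors 3 were higher (FOS with 1.52 ± 0.57, IRF1 with 0.83 ± 0.16 and IRF7 with 0.64 ± 0.21, SE each) and JUN was lower with -0.97 ± 0.25 (SE). The NF-kappaB subunits NFKB1, NFKB2 and RELA had -0.08, 0.18 and 0.01 and did not pass.

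Of 6 measured inhibitors 2 were higher and 1 lower. SOCS3, a brake on cytokine signalling, had 1.22 ± 0.23 (SE), although its second probe gave 0.39, and USP18, a brake on interferon signalling, had 0.46 ± 0.19 (SE). TNIP1, a partner of the NF-kappaB inhibitor TNFAIP3, had -0.76 ± 0.23 (SE). IRAK3, a kinase-like inhibitor of the pathway, had 0.36 ± 0.21 (SE, adjusted p = 0.15). Of 22 target cytokines and surface markers 13 were higher and 2 lower, with a median of 1.28. The costimulatory molecules CD86 and CD40 had 1.44 ± 0.16 (SE) and 1.42 ± 0.17 (SE), the neutrophil chemokine CXCL8 had 3.11 ± 0.42 (SE) and IL18 had 3.02 ± 0.42 (SE). IL6 had 2.52 ± 0.44 (SE) and IL1B had 1.63 ± 0.38 (SE), both higher. TNF had -0.07 ± 0.24 (SE, adjusted p = 0.84), while its second probe gave 0.56, so the TNF probes disagree. Of 10 other pattern receptors 7 were higher and 0 lower, with CLEC7A (the beta-glucan receptor) at 3.63 ± 0.40 (SE), NOD1 at 2.30 ± 0.27 (SE), MB21D1 (the DNA sensor cGAS) at 1.28 ± 0.22 (SE) and NLRP3 at 1.08 ± 0.17 (SE). No gene of these lists passed between secretome and medium in any region.

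**Figure D5:**
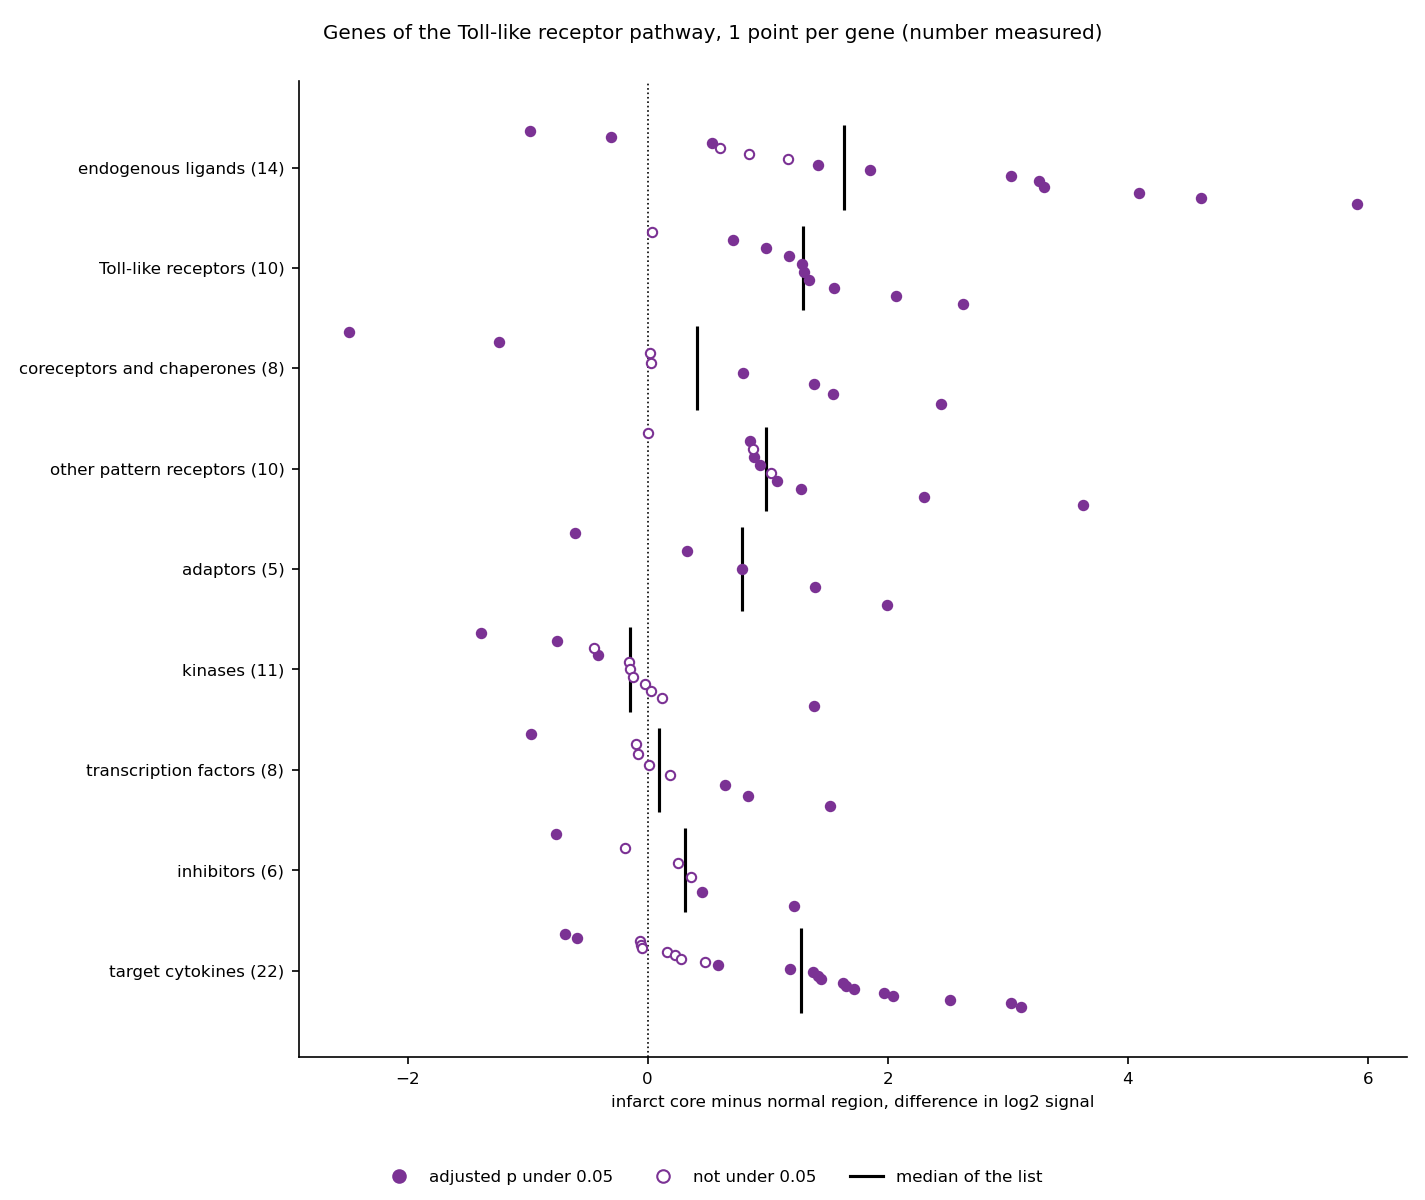
Log2 difference between infarct core and normal region (x axis) of each measured gene of the receptor pathway, by list, with filled points where the adjusted p was under 0.05 and a line at each list's median. The medians of ligands, receptors and target cytokines lie above 1, and that of the kinases lies at -0.15.

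Each receptor's pattern over the 24 arrays was compared with 6169 other named genes after the mean of each scan series was subtracted. These correlations are a description, since the arrays share regions, pigs and scaling. TLR2 was most like CD163, a scavenger receptor of macrophages, with r = 0.97 (0.92 without the subtraction), then SLA-DQA1 and HMOX1. TLR1 was most like BLNK with r = 0.96, then FCGR3A and AIF1. TLR7 was most like CXCL16 with r = 0.96, then TNFSF13B and CD53, and TLR3 was most like TPM3 with r = 0.96, then GOLGA7 and TRIM38. TLR4 (FOLR1, SOAT1, CYTH4), TLR6 (ARL11, C9, CASP1) and TLR8 (WDFY3, MYO5A, MYO1D) had highest values of 0.93, 0.93 and 0.91. TLR10 (DSCC1, CTH, ASAH1) and TLR9 (CD14, HMOX1, STXBP2) had 0.89 and 0.86. TLR5, whose probe was dim and well above background on only 11 of 24 arrays, had 0.67 for PDGFRB (0.80 without the subtraction). Next came TNF with 0.65 (-0.27 without it, the opposite sign) and NPY with 0.65 (0.69 without it). Its correlations with the other 9 receptors after the subtraction were all negative, from -0.42 with TLR4 to -0.13. Among the other 9 receptors the correlations ran from 0.48 for TLR9 with TLR10 to 0.92 for TLR1 with TLR2.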

How the data were processed

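Each array is a 1-colour Agilent scan of 1 tissue sample (100 ng RNA, RIN above 6). The deposited intensity values had, per the file headers, been background-subtracted in Agilent Feature Extraction 10.7.3.1. The deposited log2 table was made by the authors with limma 3.14.4, per the submitters' processing notes; how it was normalized is not given in the sources used here. Column medians of this table are 7.684 to 7.692, and it served as an alternative. Spots flagged as outliers (1 to 27 per array) were left out and spots of a probe averaged. Log2 of the processed signal minus log2 of the array's 75th percentile was tested in limma 3.58.1 (R 4.3.3) over 34362 probes, with a mean for each region and arm, the pig as a random block, and Benjamini-Hochberg adjustment. Region contrasts weight the arms equally. The labels give the pig. The 21 pairs of samples from the same pig, each within 1 scan series, all had deviations correlated above 0.1 (mean 0.58). So did 93 of 94 pairs from different pigs and groups of the same series (mean 0.44), so this check hardly separates pig from series. The correlation fitted for the pig block was 0.55, and 0.20 with the scan series as a covariate. A gene is read from its brightest kept probe. Of all probes 14206 had 1 symbol, 39 several and 29358 none. The fit was tested on simulated data. P-values of the region contrasts rest mainly on the spread of differences within pigs. Those of secretome against medium within 1 region rest mainly on the spread between pigs. The receptors, gene lists and tests were chosen with earlier results of these data known. Named by rule were the 10 receptors, the 4 genes of each pathway list with the smallest p between infarct core and normal region, MYD88, CD14, LY96, TNF, IL1B and IL6, and the 3 genes most like each receptor; other pathway genes (such as HSPD1, HMGB1, S100A8, S100A9, LBP, HSP90B1, CNPY3, NFKB1, NFKB2 and RELA) were added after their values were seen.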

Additional observations from a re-analysis of the deposited data

Results flagged for a closer look

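TLR7 in the infarct core of secretome pig 11 had a log2 level of -3.68, far below the next of the 6 secretome core samples at -2.06, while the highest was -1.31. Its probe was well above background on that array. Of 30 groups looked at, this was the 1 with such a gap, and chance flags about 1 in 20. Without pig 11 the secretome minus medium difference of TLR7 in the core was -1.15, against -1.46 with it, and neither passed.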

How the results depend on the processing

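No receptor tested was called between border zone and normal region over 22 alternatives, or between secretome and medium in each region over 21; the authors' values hold 7 receptors and the filter on 12 arrays leaves 8. Counts of receptors called moved as follows, and the cause was not tested. Under normexp, 4 were called between infarct core and normal region, 4 between core and border zone, 4 in the secretome arm and 0 in the medium arm. Of 34362 probes, 2849, 2560, 2172 and 228 were called higher there. With no replicate block, 5 were called in the secretome arm and 0 in the medium arm, against 3460 and 411 probes. With the pig as fixed terms the region counts were 9, 0 and 9, against 8758, 0 and 8158 probes. Within scan series 1, which holds fewer samples, 5 were called between core and border zone, 3 in the secretome arm and 0 in the medium arm, against 4989, 3178 and 1 probes. Within series 2, where pig 10 is the only medium pig, 5 were called in the secretome arm, against 2025 probes. Leaving out 1 pig gave 8 to 9 (core against normal), 7 to 9 (core against border), 7 to 9 (secretome arm) and 0 to 6 (medium arm, 0 without pig 10 or pig 40). Of 34362 probes, 7133 to 9018, 6229 to 8460, 4737 to 7163 and 17 to 4188 were called higher in those fits. In the comparisons where no receptor was called, many values changed sign in at least 1 alternative: 7 of 10 between border zone and normal region (TLR4 to TLR10), 3 of 10 between secretome and medium in the core (TLR1, TLR5 and TLR8), 4 of 10 in the border zone (TLR4, TLR5, TLR8 and TLR9), 8 of 10 in the normal region and 9 of 10 for the difference between arms. In the other comparisons only TLR5 did, which was not called there: core minus normal was -0.063 under quantile normalization, -0.27 under normexp, -0.0058 in the authors' values, -0.21 with no replicate block, -0.067 with slide as block, -0.36 in scan series 1 and -0.27 to 0.39 leaving out 1 pig; core minus border was 0.21 under normexp, 0.0042 in the authors' values, 0.13 in series 1 and -0.27 to 0.029 leaving out 1 pig. TLR7 border minus normal was -0.056 under normexp. Probes called higher in the border zone than in the normal region numbered 157, and 0 to 318 over the alternatives. Dim probes (TLR5, TLR6, TLR8) limit precision.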
